A study of Mus musculus with 6 samples.

Results

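Immunoglobulin and T cell receptor gene segments were measured in RNA-seq libraries of neutrophils from mouse bone marrow that had been cultured with prostaglandin E2 (PGE2, a lipid mediator made from arachidonic acid). The segments were taken as every gene of the deposited table whose annotated class is C region, V segment, J segment or D segment, which gave 489 of 45777 genes. They comprised 20 constant (C) regions, 374 variable (V) segments, 82 joining (J) segments and 13 diversity (D) segments. Of these, 260 belong to the immunoglobulin loci (143 heavy chain, 108 kappa and 9 lambda) and 229 to the T cell receptor loci (166 alpha, 39 beta, 9 delta and 15 gamma). The PGE2 group held 3 libraries of wild type C57BL/6 neutrophils kept for 24 h in 10 µM PGE2, and the vehicle group held 3 libraries of the same kind of cells kept for 24 h in its solvent, DMSO. All 6 shared the strain, genotype, tissue and Percoll density gradient isolation, and the series design states that the replicates are biological, without saying how many animals gave cells to each library or what a replicate number stands for. P-values therefore measure the spread between these libraries.

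V, D and J segments are the separate coding pieces that developing lymphocytes join by V(D)J recombination into the variable part of an antigen receptor chain. The joined exon is spliced to a C region, which fixes the class of the chain. B cells use the heavy chain locus with either the kappa or the lambda light chain locus, and T cells use the alpha, beta, gamma and delta loci. Unjoined loci also give germline transcripts, so a read from a segment is not by itself a read from an assembled receptor. Neutrophils are myeloid cells and bone marrow is the site where mouse B cells develop.

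Depth was 42091346 to 56238941 counts per library, and 18242 to 19511 genes had a count. The 14 neutrophil marker genes were all tested, and their summed level was 74854 to 90099 CPM (the count scaled to library size, with edgeR's TMM) with PGE2 and 83914 to 89322 CPM with vehicle. S100a9 and S100a8 gave most of that sum. Of the 14 markers, 9 were lower with PGE2, against 14.3% of all genes tested, with a median log2 fold change of -0.85 over the list. All segments together summed to 1371, 1413 and 1737 CPM in the PGE2 libraries and to 1169, 1166 and 1358 CPM in the vehicle libraries. Those sums were 0.143%, 0.137% and 0.188% of all counts with PGE2, against 0.116%, 0.111% and 0.130% with vehicle. In CPM each PGE2 library thus lay above each vehicle library, by a small margin and with a ratio of means of 1.22, whereas in TPM the groups overlapped at 4105 to 5786 with PGE2 and 3677 to 4337 with vehicle. Of the 489 members, 55 had no count in any library, 224 had counts but too few to test, and 210 were tested (17 C regions, 173 V segments, 20 J segments and no D segment). A gene was tested when it had at least 10 counts in at least 3 libraries.

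Few of the tested segments passed. With edgeR's quasi-likelihood test and Benjamini-Hochberg adjustment over 15947 genes, 5 segments were higher and 3 lower with PGE2 at an adjusted p under 0.05, which is 3.81% of the 210 tested, against 24.4% of all genes tested (10.1% higher and 14.3% lower). The higher ones were Ighv1-56, Iglc1, Iglc2, Iglc3 and Igkc, and the lower ones were Ighv1-64, Ighv1-53 and Ighg2c. Ighg2c reached 10 counts in the vehicle libraries alone, so it had to differ to be tested at all, and it is described by its counts. Of the 207 segments that did not enter through 1 group alone, 5 were higher and 2 lower. The 2 groups did not overlap in CPM for 27 tested segments, 16 higher and 11 lower with PGE2, which is 12.9% against 42.3% of all genes tested (20.5% higher and 21.8% lower). The median log2 fold change of the tested segments was 0.14, and that of all tested genes was 0.04. With the replicate number as a block in the fit, 12 segments were higher and 4 lower (7.62%, against 35.5% of all genes tested), and the 8 segments named above were among them. Scaling by library totals alone gave 6 higher and 2 lower segments in a table of 2186 higher and 1751 lower genes, and the authors' TPM (a level scaled to gene length and library size) gave 7 higher and 5 lower in a table of 966 and 2255, where the count test had 1618 higher and 2278 lower genes.

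By locus, the median log2 fold change was -0.20 over the 80 tested heavy chain segments, 0.20 over the 82 kappa, 0.57 over the 9 lambda and 0.43 over the 39 tested T cell receptor segments. All 9 lambda segments were above 0, as were 33 of the 39 T cell receptor segments, 55 of the 82 kappa segments and 26 of the 80 heavy chain segments. These counts carry no test. Members of 1 locus can come from the same transcripts and are not replicates.

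**Figure D1:**
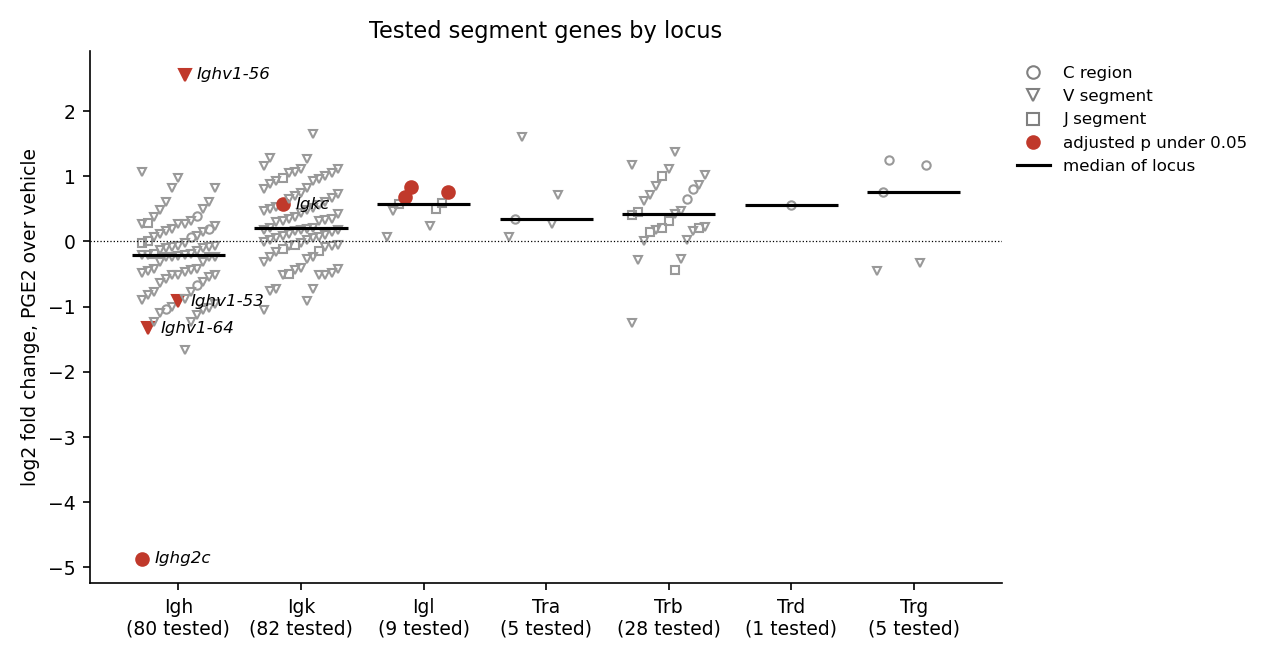
Log2 fold change (PGE2 over vehicle, edgeR) of each of the 210 tested segments by locus, with the marker shape giving the segment class, filled red markers the 8 segments at an adjusted p under 0.05, and bars the locus medians. Ighv1-56 stands at 2.55, Ighv1-64 at -1.33 and Ighg2c at -4.87, a fitted value that depends on the prior count since the PGE2 libraries had 0, 0 and 3 counts, and the 9 lambda segments all lie above 0.

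Light chain constant regions were higher with PGE2 in every library. Igkc, the kappa constant region (chr6:70726435-70726754, plus strand, mm10), had 10325, 9887 and 13579 counts in the PGE2 libraries and 6584, 5025 and 7618 counts in the vehicle libraries. That is 206 ± 17.3 CPM with PGE2 and 139 ± 11.8 CPM with vehicle (SD, n = 3 each), a log2 fold change of 0.57 ± 0.10 (SE; edgeR adjusted p = 0.00479). By length-normalised level Igkc was the most abundant segment of the table, at a mean of 905 TPM over the 6 libraries and rank 114 of all 45777 genes.

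The 3 lambda constant regions lie on the minus strand of chromosome 16. Iglc1 (chr16:19061752-19062071) had 2052, 2515 and 3090 counts with PGE2 and 1147, 1027 and 1421 with vehicle, a log2 fold change of 0.84 ± 0.11 (edgeR adjusted p = 0.00134). Iglc2 (chr16:19198536-19198852) had 1947, 1684 and 2337 counts with PGE2 and 1017, 793 and 1161 with vehicle, 0.76 ± 0.11 on the log2 scale (edgeR adjusted p = 0.00216). Iglc3 (chr16:19065365-19065681) had 2198, 1620 and 2412 counts with PGE2 and 1137, 891 and 1264 with vehicle, 0.68 ± 0.14 on the log2 scale (edgeR adjusted p = 0.00849). In all 3 the lowest PGE2 library was above the highest vehicle library. On the authors' TPM, tested with limma, Igkc (adjusted p = 0.0537) and Iglc3 (adjusted p = 0.0539) no longer passed.

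The first 300 coding bases of the lambda constant regions, from GENCODE M21 on GRCm38, are shown because near-identical copies can share reads. Capitals mark bases of Iglc1 that differ from Iglc2, and bases of Iglc2 and Iglc3 that differ between those 2 genes or have no partner in the alignment.
Iglc1: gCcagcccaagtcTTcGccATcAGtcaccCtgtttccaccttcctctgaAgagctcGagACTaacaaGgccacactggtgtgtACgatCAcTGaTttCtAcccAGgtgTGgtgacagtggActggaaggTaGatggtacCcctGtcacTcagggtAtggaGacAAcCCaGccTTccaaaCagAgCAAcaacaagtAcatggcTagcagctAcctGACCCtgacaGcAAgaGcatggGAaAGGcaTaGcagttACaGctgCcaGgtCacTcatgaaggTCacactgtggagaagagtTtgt
Iglc2: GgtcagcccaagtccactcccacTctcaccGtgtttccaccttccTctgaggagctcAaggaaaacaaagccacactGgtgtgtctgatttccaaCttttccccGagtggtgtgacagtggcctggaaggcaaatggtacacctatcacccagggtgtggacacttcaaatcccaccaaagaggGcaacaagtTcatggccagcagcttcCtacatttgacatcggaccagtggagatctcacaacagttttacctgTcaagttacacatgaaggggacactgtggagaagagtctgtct
Iglc3: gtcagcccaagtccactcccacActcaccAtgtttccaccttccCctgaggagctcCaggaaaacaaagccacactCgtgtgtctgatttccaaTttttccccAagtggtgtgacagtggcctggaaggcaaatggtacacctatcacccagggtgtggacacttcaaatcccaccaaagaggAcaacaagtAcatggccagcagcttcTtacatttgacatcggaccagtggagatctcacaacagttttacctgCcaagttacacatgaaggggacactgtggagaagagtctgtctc
Over the whole coding sequence, Iglc2 and Iglc3 were 96.5% identical, with 11 of 314 aligned bases different, and Iglc1 was 74.8% identical to Iglc2. In their annotated transcripts, with untranslated ends, 100% of the 101-base windows of Iglc1, Iglc2, Iglc3 and Igkc were found in no other immunoglobulin or T cell receptor transcript. The window was set to the 101 bases that the deposited coverage, span and count of these genes give per counted read.

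The mouse lambda locus rearranges in short units, with Iglv1 joined to Iglj1 or Iglj3 and Iglv2 joined to Iglj2. Iglv1 (chr16:19085017-19085460), the V segment with the most counts, had 1102, 1010 and 1397 counts with PGE2 and 579, 708 and 845 with vehicle. All 3 PGE2 libraries were above the vehicle libraries, and the log2 fold change of 0.46 ± 0.15 missed the threshold (edgeR adjusted p = 0.0536), with 0.47 and an adjusted p of 0.0257 under the replicate block. Iglv2 had 222, 205 and 288 counts with PGE2 and 194, 123 and 193 with vehicle (log2 fold change 0.24 ± 0.19, edgeR adjusted p = 0.404). Iglv3, which overlaps the non-coding gene Gm35545 on the other strand, had 223, 200 and 132 counts with PGE2 and 120, 169 and 159 with vehicle (0.07 ± 0.30, edgeR adjusted p = 0.897). The sources used here do not say whether counting was by strand. Iglv1 took 71.2%, 71.4% and 76.9% of the lambda V counts with PGE2, against 64.8%, 70.8% and 70.6% with vehicle.

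The lambda J segments lay in the same direction as their constant regions and did not pass the test. Iglj1 had 138, 151 and 201 counts with PGE2 and 92, 83 and 95 with vehicle (log2 fold change 0.60 ± 0.20, edgeR adjusted p = 0.0682). Iglj2 had a log2 fold change of 0.50 ± 0.23 (edgeR adjusted p = 0.148) and Iglj3 of 0.57 ± 0.30 (edgeR adjusted p = 0.210). For all 3 the PGE2 and vehicle libraries did not overlap in CPM. J segments are shorter than a read, and in the 12 immunoglobulin J segments all 72 library counts were within 1 of the deposited coverage times the span over 101 bases. A read that only partly covers a J segment thus added less than 1 count.

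Summed over the 117 light chain members, the level was 453, 430 and 509 CPM with PGE2 and 319, 305 and 344 CPM with vehicle, a ratio of means of 1.44. Over the 143 heavy chain members it was 855, 785 and 1062 CPM with PGE2 and 804, 734 and 896 CPM with vehicle, a ratio of 1.11, and the groups overlapped. The heavy chain sum was below vehicle by 0.01 on the log2 scale without Ighm and by 0.02 in the authors' TPM. The ratio of Igkc to Ighm in TPM was 1.30, 1.37 and 1.19 with PGE2, against 1.00, 1.01 and 0.933 with vehicle, with no overlap. A two-sided exact permutation test over the 6 libraries gave p = 0.1, the smallest that 3 against 3 libraries allow. Iglc1 to Iglc3 together over Igkc in TPM was 0.604, 0.592 and 0.581 with PGE2 and 0.504, 0.542 and 0.508 with vehicle. For the constant regions, the lambda to kappa ratio was thus also higher in each PGE2 library, and the V segments were not compared in this way.

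**Figure D2:**
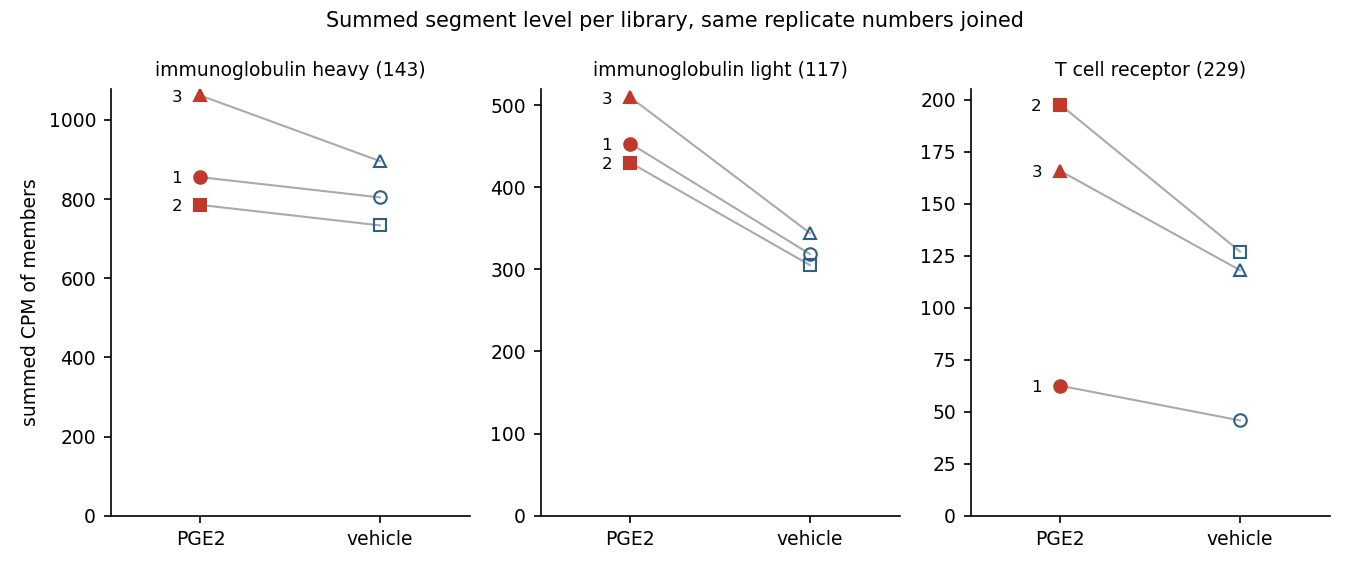
Summed CPM of the 143 heavy chain, 117 light chain and 229 T cell receptor members in each library (circle, square and triangle for replicates 1, 2 and 3), with libraries of the same number joined. The light chain sums were 430 to 509 CPM with PGE2 and 305 to 344 CPM with vehicle, and for T cell receptor members replicate 1 is the lowest in both groups.

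Heavy chain constant regions were led by Ighm, which encodes the IgM heavy chain (chr12:113418826-113422730, minus strand). It had 37094, 33603 and 53377 counts with PGE2 and 30659, 23248 and 38054 with vehicle. The groups overlapped at 643 to 879 CPM with PGE2 and 579 to 736 CPM with vehicle, and the log2 fold change of 0.18 ± 0.14 did not pass (edgeR adjusted p = 0.376). Ighm was the second segment by length-normalised level, at a mean of 802 TPM and rank 144. Ighd, the IgD constant region, had 1840, 1135 and 1764 counts with PGE2 and 1442, 1015 and 1375 with vehicle (0.06 ± 0.18, edgeR adjusted p = 0.843). Igha, the IgA constant region, had 805, 2680 and 3677 counts with PGE2 and 799, 1820 and 1797 with vehicle (0.39 ± 0.48, edgeR adjusted p = 0.613), and replicate 1 was the lowest of its group in both.

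The IgG constant regions were scarce. The 4 IgG genes summed to 1.36, 5.47 and 3.61 CPM with PGE2 and 5.35, 11.2 and 7.99 CPM with vehicle. Ighg2c, the IgG2c gene carried by C57BL/6 mice (chr12:113287389-113288932, minus strand), had 0, 0 and 3 counts with PGE2 and 27, 21 and 34 with vehicle. Scaled to library size, the PGE2 counts were 0.0308 of the vehicle counts, with a 95% exact interval of 0.00622 to 0.0932 that covers counting error only. Since it entered the test only through the vehicle libraries, its p is not given as support, and without any 1 vehicle library it had too few counts to be tested. Ighg2b had 49, 145 and 208 counts with PGE2 and 163, 286 and 214 with vehicle, which do not overlap in CPM, at 0.969, 2.77 and 3.43 CPM with PGE2 and 3.56, 7.13 and 4.14 CPM with vehicle. Its log2 fold change of -1.04 ± 0.45 did not pass (edgeR adjusted p = 0.136) and was -1.13 with an adjusted p of 0.0202 under the replicate block. Ighg1 had 20, 141 and 8 counts with PGE2 and 31, 49 and 165 with vehicle (edgeR adjusted p = 0.673). Ighg3 had 0 counts in each PGE2 library and 24, 92 and 0 with vehicle, too few libraries to test, and Ighe, the IgE gene, had none anywhere.

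**Figure D3:**
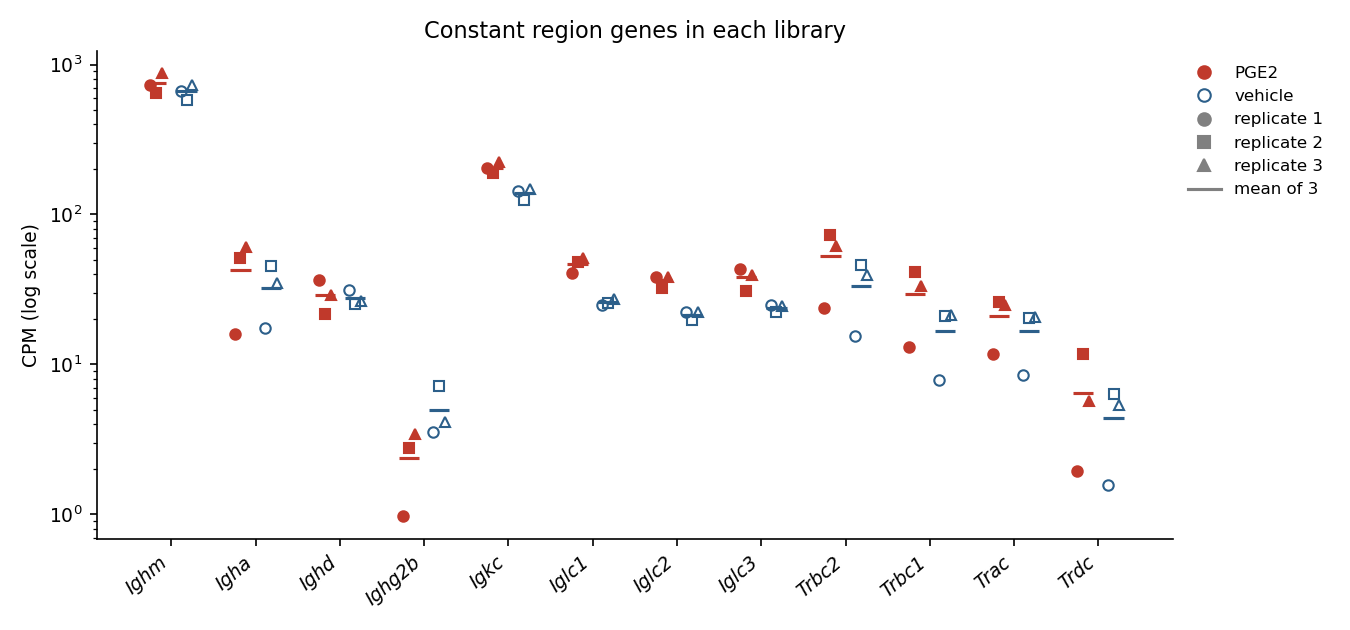
CPM (log scale) of 12 constant region genes in each library, PGE2 filled and vehicle open, with the marker giving the replicate number and bars the means of 3. Igkc and Iglc1 to Iglc3 do not overlap between groups, Ighm does, and Trbc2, Trbc1, Trac, Trdc and Igha are lowest in replicate 1 of both groups.

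Among heavy chain V segments, a pair of Ighv1 family members exchanged the leading place. Ighv1-56 (chr12:115242802-115243095, minus strand) had 470, 434 and 617 counts with PGE2 and 80, 71 and 63 with vehicle. That is 9.25 ± 0.931 CPM with PGE2 and 1.58 ± 0.312 CPM with vehicle (SD, n = 3 each), a log2 fold change of 2.55 ± 0.20 (edgeR adjusted p = 0.000255). Ighv1-64 (chr12:115507587-115507977, minus strand) went the other way, with 194, 235 and 382 counts with PGE2 and 502, 457 and 752 with vehicle. Its level was 4.87 ± 1.27 CPM with PGE2 and 12.3 ± 1.96 CPM with vehicle, a log2 fold change of -1.33 ± 0.21 (edgeR adjusted p = 0.00327). Both passed under all 15 alternatives, over which Ighv1-56 ranged from 2.34 to 2.65 and Ighv1-64 from -1.55 to -1.18.

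Ighv1-56 took 14.7%, 14.0% and 12.5% of the heavy chain V counts in the PGE2 libraries and 2.32%, 2.62% and 1.46% in the vehicle libraries, and it was the leading V segment in each PGE2 library. Ighv1-64 took 6.08%, 7.58% and 7.71% with PGE2 and 14.5%, 16.9% and 17.5% with vehicle, where it led in each library. The other 119 heavy chain V members summed to 49.9, 46.5 and 65.2 CPM with PGE2 and 62.6, 54.4 and 67.4 CPM with vehicle, which overlap. The whole Ighv1 family of 60 members held 66.2% to 68.3% of heavy chain V counts with PGE2 and 62.8% to 70.0% with vehicle.

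The last 294 coding bases of both segments (GENCODE M21, GRCm38), which leave out the leader peptide, are shown with capitals for bases that differ from the closest relative, Ighv1-62-1 for Ighv1-56 and Ighv1-62 for Ighv1-64, or have no partner there.
Ighv1-56: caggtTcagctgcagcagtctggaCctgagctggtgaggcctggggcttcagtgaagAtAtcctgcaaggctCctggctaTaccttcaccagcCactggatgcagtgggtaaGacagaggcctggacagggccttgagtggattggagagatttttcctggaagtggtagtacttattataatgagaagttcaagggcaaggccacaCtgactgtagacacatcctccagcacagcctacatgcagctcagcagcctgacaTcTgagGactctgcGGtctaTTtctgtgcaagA
Ighv1-64: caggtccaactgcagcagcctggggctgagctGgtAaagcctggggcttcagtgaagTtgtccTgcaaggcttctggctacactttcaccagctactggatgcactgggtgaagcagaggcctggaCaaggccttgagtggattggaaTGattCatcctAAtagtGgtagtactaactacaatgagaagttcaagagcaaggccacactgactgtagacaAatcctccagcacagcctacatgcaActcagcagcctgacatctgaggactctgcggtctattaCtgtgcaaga
Over the whole coding sequence, Ighv1-56 was 94.3% identical to Ighv1-62-1, with 20 of 349 aligned bases different, and Ighv1-64 was 95.7% identical to Ighv1-62, with 15 of 350 different. Even so, 100% of the 101-base windows of each were found in no other annotated receptor transcript. Of the 393 members long enough to hold such a window, 206 had all their windows to themselves, 60 had fewer than 50% and 37 had none, and the separate counts of those sharing windows are uncertain. Joined V segments of B cells can carry mutations and the mice of a colony can differ from the reference, which this comparison of reference sequences does not see.

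Genes beside the pair were read for comparison. Ighv8-10, an annotated V pseudogene 11362 bases from Ighv1-64 on the same strand, had 156, 171 and 224 counts with PGE2 and 336, 349 and 504 with vehicle, a log2 fold change of -1.36 ± 0.17 (edgeR adjusted p = 0.00116). On the other side of Ighv1-64, Ighv1-63, 11528 bases away, had 73, 74 and 169 counts with PGE2 and 93, 57 and 97 with vehicle (0.08 ± 0.34, edgeR adjusted p = 0.888). Beside Ighv1-56, Ighv1-55 had 30, 47 and 140 counts with PGE2 and 56, 90 and 95 with vehicle (-0.47 ± 0.51, edgeR adjusted p = 0.551). The non-coding gene Gm30948 on the opposite strand was at -0.32 ± 0.27 (edgeR adjusted p = 0.432). A second heavy chain V pseudogene, Ighv1-41, had 139, 107 and 83 counts with PGE2 and 260, 193 and 210 with vehicle (-1.24 ± 0.28, edgeR adjusted p = 0.0144). Pseudogenes are not members, and these 2 were the only ones called of the 7 tested among 170 segment pseudogenes. That part is near the 24.4% called over all genes tested, of which 14.3% were lower with PGE2 and 10.1% higher.

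Ighv1-53, a further Ighv1 member (chr12:115158445-115158835), had 72, 76 and 121 counts with PGE2 and 112, 120 and 194 with vehicle (log2 fold change -0.91 ± 0.26, edgeR adjusted p = 0.0360). The groups did not overlap in CPM. The call rested on single libraries: the edgeR adjusted p was 0.0896 without PGE2 replicate 1, 0.0980 without PGE2 replicate 2, 0.0918 without vehicle replicate 2 and 0.134 without vehicle replicate 3. Ighv1-26, the next heavy chain V segment by level, had 131, 123 and 218 counts with PGE2 and 162, 123 and 175 with vehicle (-0.23 ± 0.22, edgeR adjusted p = 0.511). Of the 70 tested heavy chain V segments, 49 had a log2 fold change below 0 and 21 above it.

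**Figure D4:**
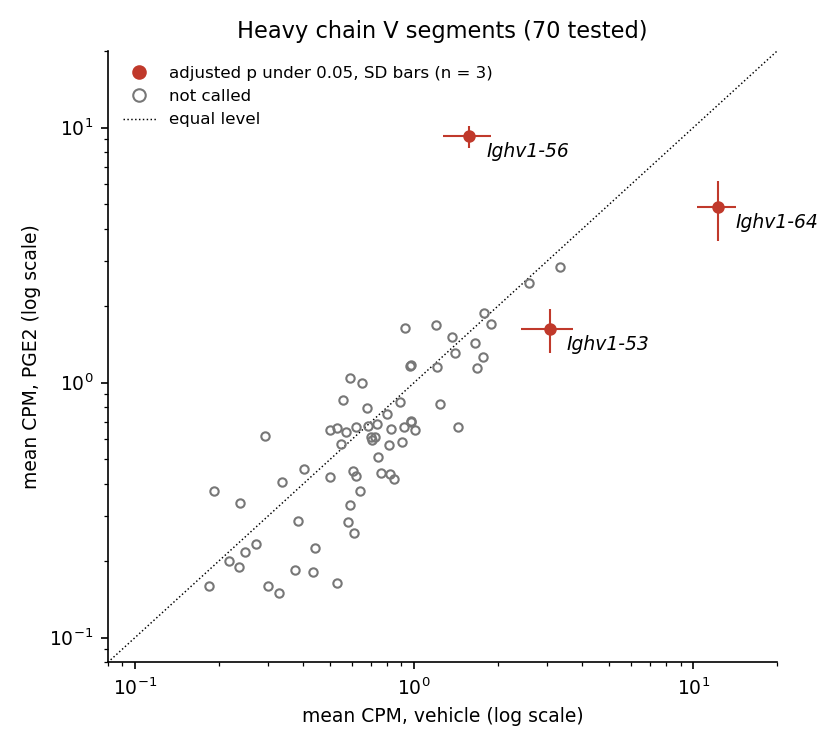
Mean CPM (log scales) of the 70 tested heavy chain V segments, PGE2 on the vertical and vehicle on the horizontal axis, with SD bars (n = 3) on the 3 segments at an adjusted p under 0.05 and a dotted line at equal level. Ighv1-56 lies above the line at 9.25 CPM with PGE2 and 1.58 CPM with vehicle, and Ighv1-64 lies below it at 4.87 CPM with PGE2 and 12.3 CPM with vehicle.

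Kappa V counts were spread over many segments. The leading kappa V segment took 5.06% to 6.37% of kappa V counts in a PGE2 library and 5.53% to 6.65% in a vehicle library, and none of the 76 tested passed in edgeR or DESeq2, with 2 at an unadjusted edgeR p under 0.05. Igkv1-135 had 218, 225 and 438 counts with PGE2 and 186, 164 and 309 with vehicle (log2 fold change 0.16 ± 0.26, edgeR adjusted p = 0.703). Igkv1-117 was at 0.15 ± 0.22 (edgeR adjusted p = 0.670), Igkv10-96 at 0.30 ± 0.22 (edgeR adjusted p = 0.368) and Igkv6-15 at 0.34 ± 0.31 (edgeR adjusted p = 0.473). Igkv9-120 had 100, 90 and 168 counts with PGE2 and 35, 43 and 86 with vehicle. It missed the threshold (0.88 ± 0.35, edgeR adjusted p = 0.110) and passed under the replicate block (0.92, adjusted p = 0.0345). Summed kappa V levels were 85.1, 91.3 and 113 CPM with PGE2 and 74.4, 78.4 and 89.8 CPM with vehicle.

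J segments of the 3 immunoglobulin loci are printed here since they are too short to hold a whole read. Capitals mark TTCGG (light chains) or TGGGG (heavy chain) followed by any 4 bases and GG, letters which encode the conserved Phe-Gly or Trp-Gly motif within the J segment.
Ighj1: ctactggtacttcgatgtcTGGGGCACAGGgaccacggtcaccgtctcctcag
Ighj2: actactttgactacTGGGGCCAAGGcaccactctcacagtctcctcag
Ighj3: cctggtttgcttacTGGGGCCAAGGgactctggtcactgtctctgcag
Ighj4: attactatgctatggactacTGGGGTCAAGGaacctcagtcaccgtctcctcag
Igkj1: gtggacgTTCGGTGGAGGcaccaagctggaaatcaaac
Igkj2: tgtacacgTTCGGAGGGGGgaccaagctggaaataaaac
Igkj3: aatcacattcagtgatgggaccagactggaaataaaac
Igkj4: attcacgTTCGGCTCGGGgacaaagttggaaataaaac
Igkj5: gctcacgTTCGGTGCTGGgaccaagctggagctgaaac
Iglj1: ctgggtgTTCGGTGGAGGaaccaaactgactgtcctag
Iglj2: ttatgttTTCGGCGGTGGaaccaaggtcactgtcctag
Iglj3: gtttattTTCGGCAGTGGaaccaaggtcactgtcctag
With TTTGG allowed as another start of the motif, the coding strand held a match in 68 of 82 J members (82.9%), and in the first 50 bases of 2 of 724 other receptor transcripts (0.276%). On the opposite strand there were 0 matches in J members and 2 in those 724. Igkj3, which held none of the 3 forms, is regarded as non-functional in the mouse, and it had the lowest level of the immunoglobulin J segments, at 12.3, 4.51 and 9.66 TPM with PGE2 and 17.4, 7.86 and 13.6 TPM with vehicle. Igkj4 came next, with 14.0, 21.1 and 22.5 TPM with PGE2 and 31.9, 19.4 and 19.1 TPM with vehicle, and it was above Igkj3 in each library, while the lowest Igkj4 value with PGE2 lay below the highest Igkj3 value with vehicle.

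None of the 20 tested J segments passed in edgeR or DESeq2, and 1 had an unadjusted edgeR p under 0.05. Igkj1 had 70, 48 and 154 counts with PGE2 and 30, 40 and 42 with vehicle (log2 fold change 0.98 ± 0.43, edgeR adjusted p = 0.137). The 4 heavy chain J segments ran from -0.19 for Ighj4 to 0.28 for Ighj2, each with a groupwise spread that overlapped. In CPM the 3 lambda J segments were the only ones of the 12 whose groups did not overlap, that is 3 of 12 against 42.3% of all genes tested (20.5% with PGE2 higher). In TPM Iglj3 overlapped, with 80.2, 53.7 and 77.3 TPM with PGE2 and 52.4, 36.5 and 62.2 TPM with vehicle.

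**Figure D5:**
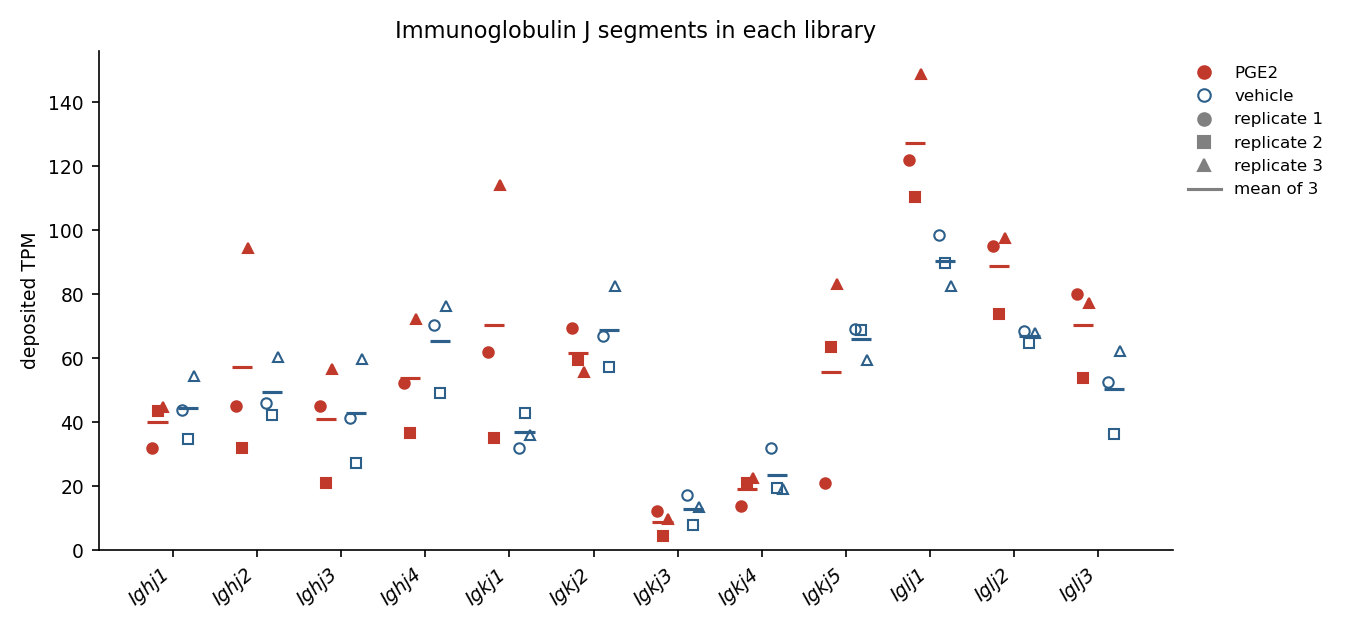
Deposited TPM of the 12 immunoglobulin J segments in each library, PGE2 filled and vehicle open, with the marker giving the replicate number and bars the means of 3. Iglj1 averages 127 TPM with PGE2 and 90.2 TPM with vehicle, and Igkj3 is the lowest, at 8.83 TPM with PGE2 and 12.9 TPM with vehicle.

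The 229 T cell receptor members summed to 62.5, 198 and 166 CPM with PGE2 and to 45.8, 127 and 118 CPM with vehicle, so that replicate 1 was lowest in both groups and each PGE2 library was above the vehicle library of the same number. Trbc2, a beta chain constant region (chr6:41546730-41548181, plus strand), had 1194, 3794 and 3761 counts with PGE2 and 711, 1839 and 2029 with vehicle. The groups overlapped and the log2 fold change of 0.65 ± 0.47 did not pass (edgeR adjusted p = 0.361), whereas with the replicate block it was 0.64 with an adjusted p of 0.000354. Trbc1 (chr6:41538219-41539665), the other beta chain constant region, had 656, 2162 and 2035 counts with PGE2 and 362, 848 and 1100 with vehicle (0.80 ± 0.47, edgeR adjusted p = 0.259, and 0.78 with an adjusted p of 0.000663 under the block).

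Trac, the alpha chain constant region (chr14:54220521-54224198), had 592, 1364 and 1522 counts with PGE2 and 391, 820 and 1074 with vehicle (0.34 ± 0.39, edgeR adjusted p = 0.579, and 0.36 with an adjusted p of 0.0195 under the block). Without both libraries numbered 1, the edgeR adjusted p was 0.0155 for Trbc2 and 0.00965 for Trbc1. That alternative was chosen after seeing the data and leaves out the library of each group that was lowest for these genes, so these p-values are not given as support. Trbc1 and Trbc2 share sequence: 71.6% and 69.4% of their 101-base windows were found in no other receptor transcript, so their separate counts are uncertain. Both together over Trac in TPM gave 5.58, 7.79 and 6.79 with PGE2 and 4.89, 5.84 and 5.20 with vehicle, which overlap. Trdc, the delta chain constant region, had 99, 610 and 346 counts with PGE2 and 72, 253 and 275 with vehicle (0.55 ± 0.65, edgeR adjusted p = 0.592).

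The gamma chain constant regions were near the limit of counting. Tcrg-C1 had 5, 105 and 79 counts with PGE2 and 2, 37 and 29 with vehicle, Tcrg-C2 had 0, 76 and 105 with PGE2 and 19, 37 and 29 with vehicle, and Tcrg-C4 had 15, 118 and 53 with PGE2 and 0, 38 and 26 with vehicle. Their log2 fold changes of 1.17, 0.75 and 1.25 had standard errors of 1.07 to 1.10 and none passed edgeR's test (adjusted p = 0.478, 0.667 and 0.464). Of 18 tested beta chain V segments none passed in edgeR or DESeq2, with 3 at an unadjusted edgeR p under 0.05, and 2 passed under the block (11.1%, against 35.5% of all genes tested): Trbv13-1 (37, 130 and 121 counts with PGE2, 12, 46 and 47 with vehicle, log2 fold change 1.22, adjusted p = 0.0183) and Trbv19 (31, 90 and 85 counts with PGE2, 9, 26 and 31 with vehicle, 1.40, adjusted p = 0.0287). The 114 alpha chain V members held 93 to 383 counts in a PGE2 library and 105 to 332 in a vehicle library in all, and 4 of them could be tested.

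Genes that act with these receptors were read as lists. Of 20 B cell receptor partners and B lineage genes, 8 were higher and none lower (edgeR; 15 higher and none lower under the block, where 16.6% of all genes tested were higher), that is 8 of 20 against 10.1% of all genes tested that were higher, with a median log2 fold change of 0.59 in the list and 0.04 over all genes tested. Their sum was 1397, 1142 and 1733 CPM with PGE2 and 950, 818 and 1132 CPM with vehicle. Cd79a, a signalling subunit of the B cell receptor, had 10836, 8717 and 14118 counts with PGE2 and 5527, 4193 and 6555 with vehicle (0.80 ± 0.14, edgeR adjusted p = 0.00418). Its partner Cd79b was at 0.77 ± 0.18 (edgeR adjusted p = 0.0174), the adaptor Blnk at 0.70 ± 0.18 (0.0223) and the transcription factor Spib at 0.62 ± 0.18 (0.0383). Leaving out 1 library kept the call of Cd79a, and ended that of Cd79b without vehicle replicate 1 or 2 (edgeR adjusted p = 0.0611 and 0.0665), that of Blnk without PGE2 replicate 3 or vehicle replicate 1 or 2 (0.0704, 0.0751 and 0.0806), and that of Spib without PGE2 replicate 1 or 3 or vehicle replicate 1 or 2 (0.0615, 0.104, 0.117 and 0.125). None of the 20 genes was at 0 in all libraries.

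By its median the B lineage list thus lay in the direction of the light chain constant regions, while Ighm and Ighd did not pass. Of its other genes, Cd22 was at -0.06 ± 0.12 (edgeR adjusted p = 0.776) and Fcmr at 0.18 ± 0.14 (0.415). Pax5 was at 0.23 ± 0.15 (0.308) and Ms4a1 at 0.28 ± 0.12 (0.138), and both passed under the block (adjusted p = 0.0347 and 0.0338). Genes of developing B cells within the list were read one by one. Of those that encode surrogate light chain parts or their relatives, Vpreb3 (1.03 ± 0.27, edgeR adjusted p = 0.0267) and Vpreb2 (24, 34 and 63 counts with PGE2, 8, 7 and 11 with vehicle, 1.93 ± 0.53, adjusted p = 0.0310) were higher, though without 1 library the adjusted p reached 0.0881 for Vpreb3 (without vehicle replicate 1) and 0.0963 for Vpreb2 (without PGE2 replicate 3). The call of Vpreb3 also ended without PGE2 replicate 3 or vehicle replicate 2, and that of Vpreb2 was kept only without PGE2 replicate 1. Vpreb1 was at 0.91 ± 0.36 (edgeR adjusted p = 0.104) and Igll1 at 0.78 ± 0.39 (0.191), and both passed under the block (adjusted p = 0.00231 and 0.0385). Of the genes of V(D)J joining, Dntt was at 0.49 ± 0.36 (edgeR adjusted p = 0.368, and 0.0131 under the block), Rag1 at 0.03 ± 0.18 (0.931) and Rag2 at 0.25 ± 0.25 (0.521), and the transcription factor Ebf1 was at -0.04 ± 0.26 (0.937). In bulk RNA, more cells of a type and more RNA per cell cannot be told apart, and the part of B lineage cells in the light chain difference was not tested. Of 9 plasma cell and antibody secretion genes, 2 of 8 tested were higher, Mzb1 (0.70 ± 0.19, edgeR adjusted p = 0.0315) and Prdm1 (0.76 ± 0.22, 0.0353), and none was lower, against 10.1% of all genes tested that were higher. Under the block 6 of the 8 were higher, against 16.6% of all genes. Both calls were lost without 1 library, Mzb1 without PGE2 replicate 1 or 3 or vehicle replicate 1 or 2 (edgeR adjusted p = 0.0502, 0.0990, 0.0924 and 0.0997) and Prdm1 without PGE2 replicate 1 or 2 or any 1 vehicle library (0.0833, 0.0578, 0.0942, 0.0623 and 0.111). The most abundant of this list were Tent5c (1.13 ± 0.38, edgeR adjusted p = 0.0662, and 1.07 with an adjusted p of 0.000361 under the block) and Xbp1 (0.03 ± 0.08, 0.847), and the list summed to 357, 509 and 341 CPM with PGE2 and 228, 294 and 262 CPM with vehicle. Without Tent5c the sums were 180, 188 and 225 CPM with PGE2 and 155, 158 and 190 CPM with vehicle, which overlap. Tent5c had 176, 321 and 115 CPM with PGE2 and 72.9, 135 and 72.1 CPM with vehicle. The erythroid gene Slc4a1 had 294, 556 and 186 CPM with PGE2 and 145, 232 and 111 CPM with vehicle. Both were highest in replicate 2 and lowest in replicate 3 of each group. That order was not shared by the whole erythroid list. Its 2 most abundant genes, Hbb-bs and Hba-a1, were also highest in replicate 2 but lowest in replicate 1 of both groups. Hbb-bs had 4534, 17174 and 7695 CPM with PGE2 and 1253, 6498 and 3763 CPM with vehicle. The part of erythroid cells in the Tent5c level was not tested.

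Of 20 T cell receptor partners and T lineage genes, 19 were tested and none passed in edgeR or DESeq2 in either direction, with 1 at an unadjusted edgeR p under 0.05 and 5 higher under the block, where 16.6% of all genes tested were higher. Their sum was 183, 439 and 423 CPM with PGE2 and 178, 358 and 333 CPM with vehicle, lowest in replicate 1 of both groups like the T cell receptor segments. Tcf7, a T lineage transcription factor, was at 0.23 ± 0.38 (edgeR adjusted p = 0.709) and Lck, the kinase that starts T cell receptor signalling, at 0.50 ± 0.42 (0.437, and 0.44 with an adjusted p of 0.0106 under the block). Whether the share of T cells in a library sets the level of the T cell receptor segments was not tested.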

How the data were processed

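PolyA RNA of 6 libraries was analysed. Per the labels' protocols, a TruSeq mRNA kit, named both standard and stranded, was used on TRIzol RNA. The submitters' processing notes name build mm10, StringTie 2.1.3b, RSEM, STAR, Bowtie2 and DESeq2, without saying which made which values. The authors deposited estimated counts per gene as whole numbers, unnormalised in their totals although their name calls them normalised. They also deposited TPM and coverage (signal) per library. The table held 18 columns of 6 other libraries, not used.

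Members were all rows of the 4 segment classes. Members, marker lists and tests were chosen with earlier results of these data known. The rule for named genes took constant regions with a mean of at least 10 counts, the 10 most abundant other members, every called member and, per list, the 2 most abundant and up to 4 called in each direction. Other genes named (Ighe, Igkv9-120, Trbv13-1, Trbv19, the Vpreb genes, Igll1, Dntt, Rag1, Rag2, Ebf1, Slc4a1, J segments and neighbours) were chosen after their values were seen. So were Cd22, Fcmr, Pax5, Ms4a1, Nkg7, Gzmb, Ccr3 and Il5ra. One gene that the rule names is not reported here. Counts were tested with edgeR 4.0.16 in R 4.3.3 (quasi-likelihood, TMM, at least 10 counts in 3 libraries, two-sided, Benjamini-Hochberg at 0.05). SE is from that test. In simulated data 200 genes were changed, and 15461 genes were tested. There the test found 15.4% of genes changed 1.5-fold, 56.1% changed 2-fold and 76.2% changed 4-fold, with 9.52% of calls false. In the real data 24.4% of genes tested were called, a much larger part, so these shares need not hold for them. Replicates differed by more than sampling noise (chi-square per gene of 32.5 to 118 between libraries of a group), at Pearson correlations of 0.961 to 0.981.

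Same-numbered libraries deviated together from their group means (correlations 0.258, 0.174 and 0.187, against at most 0.0019 for other pairs). Deviations cancel out within a group, so positive values for same-numbered pairs push the other pairs down, and the contrast is partly built in. The labels do not say that the numbers in the titles pair the libraries. The fit with the replicate block was run beside the unpaired one as an alternative, and its p-values hold only if the numbers do pair them. Other alternatives were size factors and Wald test of DESeq2 1.42.0, library totals, filters of 1 and 50 counts, log2(TPM + 1) with limma 3.58.1, a minimum log2 fold change of 1 and each library left out. Sequences were matched by symbol to GENCODE M21, for 488 of 489 members.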

Additional observations from a re-analysis of the deposited data

How the results depend on the processing

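Over the whole table, 1618 genes were higher and 2278 lower with PGE2. Higher calls came to 2648 with the replicate block, 966 with the authors' TPM and 404 with a log2 fold change of at least 1, and lower calls to 602 with that minimum. Without 1 library, higher calls ran from 1005 (without vehicle replicate 2) to 1541, with 1063 without PGE2 replicate 2, and lower calls from 1627 to 2262. Of the segments, 12 were higher with the block, 1 with a log2 fold change of at least 1, and 5 without any 1 library. Lower segments came to 5 with TPM, 1 without both libraries numbered 1 (an alternative chosen after seeing the data), and 1 to 3 without 1 library, with the 1 without vehicle replicate 3, where Ighg2c was not tested. Iglc1, Iglc2, Iglc3 and Igkc stayed called in each fit with 1 library left out. The summed level of all members stayed higher with PGE2 in each alternative run, by 0.18 to 0.41 on the log2 scale. The light chain sum was higher by 0.52, and by 0.40 in TPM.

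Directions turned for 7 genes, not called, among the segments and the B, plasma and T cell list genes that the rule names. In TPM the log2 fold change was -0.0701 for Ighd, -0.0654 for Iglv3 and -0.0862 for Xbp1. Without both libraries numbered 1 it was -0.0261 for Ighd and -0.28 for Iglv3. With 1 library left out it ran from -0.12 (without PGE2 replicate 1) to 0.24 for Ighd, from -0.13 (without PGE2 replicate 1) to 0.33 for Iglv3, with -0.0031 without PGE2 replicate 2 and -0.0619 without vehicle replicate 1, from -0.19 (without PGE2 replicate 2) to 0.99 for Trdc, from -0.12 (without PGE2 replicate 3) to 0.37 for Igkv1-135, from -2.70 to 0.18 (without vehicle replicate 3) for Ighg1, and from -0.0366 (without vehicle replicate 1) to 0.56 for Tcf7, with -0.00397 without PGE2 replicate 2. The causes were not tested. Apart from the calls given beside the results, the replicate block changed no other call of a named segment. With 3 libraries per group most 1.5-fold changes were missed in the simulated data with 200 changed genes, a setting that differs from the real data. D segments and most alpha chain members were too shallow to test.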

Other observations

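Lists of other cells were read in the same fit. Of 10 NK cell genes none passed in edgeR or DESeq2, with 1 at an unadjusted edgeR p under 0.05 and 5 higher under the replicate block (16.6% of all genes tested were higher under it), and the sum was 36.5, 107 and 94.9 CPM with PGE2 and 25.6, 61.0 and 57.0 CPM with vehicle. The most abundant were Klrd1 (log2 fold change 1.00 ± 0.43, edgeR adjusted p = 0.132) and Klrk1 (0.93 ± 0.43, 0.155). Nkg7 (-0.35 ± 0.30, 0.443) and Gzmb (-0.32 ± 0.75, 0.803) had negative log2 fold changes, and the other genes of the list had positive ones. Of 8 erythroid genes none passed in edgeR or DESeq2, with 5 at an unadjusted edgeR p under 0.05 and 8 higher under the block, at a sum of 15637 to 51436 CPM with PGE2 and 4419 to 20091 CPM with vehicle, with Hbb-bs at 1.35 ± 0.62 (edgeR adjusted p = 0.156) and Hba-a1 at 1.27 ± 0.55 (0.134). Of 6 tested plasmacytoid dendritic cell genes 1 was higher and 2 were lower, against 10.1% and 14.3% of all genes tested. Tcf4 was higher (0.45 ± 0.10, edgeR adjusted p = 0.0119), and Runx2 (-1.15 ± 0.11, 0.000421) and Ccr9 (-1.06 ± 0.26, 0.0219) were lower, with Irf8 at 0.07 ± 0.14 (0.740).

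Among 14 neutrophil genes, 9 were lower and none higher, against 14.3% and 10.1% of all genes tested. The lower ones included Mmp9 (-1.18 ± 0.12, edgeR adjusted p = 0.000571), Csf3r (-0.93 ± 0.11, 0.000843), Mpo (-0.99 ± 0.12, 0.00109) and Ly6g (-0.87 ± 0.13, 0.00280). S100a9 was at 0.22 ± 0.14 (0.289) and S100a8 at 0.17 ± 0.12 (0.363). Of 8 monocyte and macrophage genes 2 were lower and none higher, against 14.3% and 10.1% of all genes tested. The lower ones were Csf1r (-0.57 ± 0.14, edgeR adjusted p = 0.0218) and Adgre1 (-0.97 ± 0.20, 0.0101). Ly6c2 was at -0.60 ± 0.24 (0.106, and -0.62 with an adjusted p of 0.000509 under the block). Under the block 2 of the 8 genes of that list were higher and 3 lower, against 16.6% and 18.9% of all genes tested. Of 8 eosinophil genes 6 were lower, against 14.3% of all genes tested. Among the 6 were Epx (-1.98 ± 0.42, edgeR adjusted p = 0.0112), Ear2 (-0.92 ± 0.21, 0.0137), Siglecf (-1.07 ± 0.26, 0.0204) and Prg2 (-1.09 ± 0.28, 0.0235). Ccr3 (0.35 ± 0.24, 0.345) and Il5ra (0.50 ± 0.34, 0.331) had positive log2 fold changes and did not pass.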
